A study of Mus musculus with 6 samples.

Results

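The genes described here carry glucose carbon from the blood to the citrate cycle. They are 34 genes chosen by symbol from the 29872 gene rows of the series: 2 glucose transporters, 13 glycolytic enzymes, 4 genes of the lactate shuttle, 4 of pyruvate entry into mitochondria and 11 of the citrate cycle. All 34 had a row. Aldoa matched 2 rows, of which the one with nearly all of the signal was used. The second, at 0 to 1.01 RPKM, was under the filter and was not tested.

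RNA was sequenced from the hippocampus of C57BL/6 J mice in 6 libraries. The 3 libraries labelled shHepaCAM have the genotype HepaCAM knockdown, made with an adeno-associated virus (AAV) given on both sides in the hippocampal CA1 field against Hepacam, a cell adhesion molecule of astrocytes. The 3 libraries labelled shControl have the genotype WT; their labels carry the same treatment text and do not say which virus these mice received. Age, sex, the promoter of the vector and the interval after injection were left unstated in the labels, as was the part of the hippocampus that was sampled. The labels do not state that each library is a separate mouse, so p-values measure the spread between libraries, which may be technical. Values are RPKM, reads scaled to gene length and to library depth, and 14903198 to 17341842 reads stood behind a library.

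Glucose enters brain cells through facilitative transporters and is split by glycolysis into pyruvate. Pyruvate is either reduced to lactate, which monocarboxylate transporters move between cells, or taken into mitochondria, where pyruvate dehydrogenase feeds the citrate cycle. In the brain astrocytes are known for glycolysis and lactate release, and neurons for oxidative use of lactate and pyruvate.

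Hepacam averaged 35.6 ± 1.98 RPKM in the controls and 22.6 ± 1.76 RPKM after knockdown (SD, n = 3 each), with no overlap. Its log2 change was -0.63 (limma adjusted p = 0.00924). Without shControl replicate 3 the adjusted p was 0.0526. All 6 markers of hippocampal pyramidal and granule neurons were detected in every library. Their summed level was 222 to 236 RPKM in control and 208 to 265 RPKM in knockdown libraries. Of them, 1 passed the test, Calb1, with a fall of 0.71 on the log2 scale (limma adjusted p = 0.0299). The change was below 0 in 2 and above 0 in 4, with Wfs1 at 0.63 (limma adjusted p = 0.084). Other cell types differed between libraries. The 6 choroid plexus markers summed to 66.9 RPKM in shControl replicate 1 and 29.0 RPKM in shHepaCAM replicate 3, against 1690.1 to 4272 RPKM in the other 4 libraries. The 6 microglia markers, of which 4 rose and 0 fell, summed to 177 to 211 RPKM in control and 315 to 402 RPKM in knockdown libraries. The 5 plasma and B cell markers summed to 3.18 to 5.47 and 508 to 1827 RPKM, with Ms4a1 at 0 in at least one library. The 6 neuron markers summed to 673 to 686 and 465 to 575 RPKM. Snap25 and Tubb3 fell by 0.70 and 0.48 on the log2 scale (limma adjusted p = 0.0441 and 0.0424). Syt1, Map2, Nefl and Rbfox3 had log2 changes of -0.18, -0.13, -0.19 and 0.01 and did not pass. Apart from fits that took up choroid plexus content, the part of these shifts in the values below was not tested. In bulk tissue, fewer cells of a type and less RNA per cell cannot be told apart.

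Most genes of glucose use differed little between the groups, and 1 of the 34 passed the test. Sucla2, the ATP-forming beta subunit of succinyl-CoA ligase in the citrate cycle, fell by 0.35 on the log2(RPKM + 1) scale (limma adjusted p = 0.0298), a 22.5% lower level. None of the 34 rose. At an unadjusted p under 0.05 there were 4, Sucla2, Cs, Eno1 and Slc2a3, all lower. That is 11.8% of the 34, against 24.2% of all tested genes, or 7.92% lower. Limma-voom on whole reads called 1 of the 34 lower and 0 higher. The share of all 13864 tested genes called was 6.07%, or 1.84% lower and 4.23% higher, against 2.94% of the 34 called. The test was limma on log2(RPKM + 1) with adjustment over all genes, and all 34 passed its filter of a mean of at least 1 RPKM. Each fold change is on that scale, on which changes of low genes are understated. In 9 alternatives the call of Sucla2 was lost and 0 of the 34 were called lower. The share of all genes called lower was then 0.161% with no filter, 1.1% without the intensity trend, 0.325% with a replicate block and 0.0938% without both libraries low in choroid plexus markers. It was 0.31%, 0.202% and 0.166% without control replicate 1, 2 or 3, and 0.93% and 0.555% without knockdown replicate 2 or 3. The median half-width of the 95% intervals of the 34 changes was 0.18, and the widest was 0.40 (Slc2a1).

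Below the threshold, most changes pointed down. The log2 change was below 0 in 26 of 34 genes, with a range of -0.48 for Eno1 to 0.21 for Slc16a7 and a median of -0.11, against a median of 0.05 over all genes tested. Of all tested genes, 39.6% had a change below 0 in the reported fit. The medians depended on the scaling. With quantile normalization they were -0.11 for the 34 genes and -0.02 for all genes, and scaled to the median gene -0.17 and 0.00. All 3 knockdown libraries lay below all 3 controls in 12 of the 34 genes, or 35.3%, against 10.7% of all tested genes. The opposite held in 1, Slc16a7, or 2.94%, against 20.9% of all. The downward direction ran through glucose uptake and glycolysis, where all 15 genes had a change below 0, and was mixed further on, with 1 of 4 in the lactate shuttle, 3 of 4 in pyruvate entry and 7 of 11 in the citrate cycle. Of the 15, 0 passed the test, and they include Gapdh, which could not be read from its own row (below). Without shHepaCAM replicate 2 Gpi1 was at 0.08 and Pkm at 0.00, and without shControl replicate 3 Gpi1 was at 0.02.

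**Figure D1:**
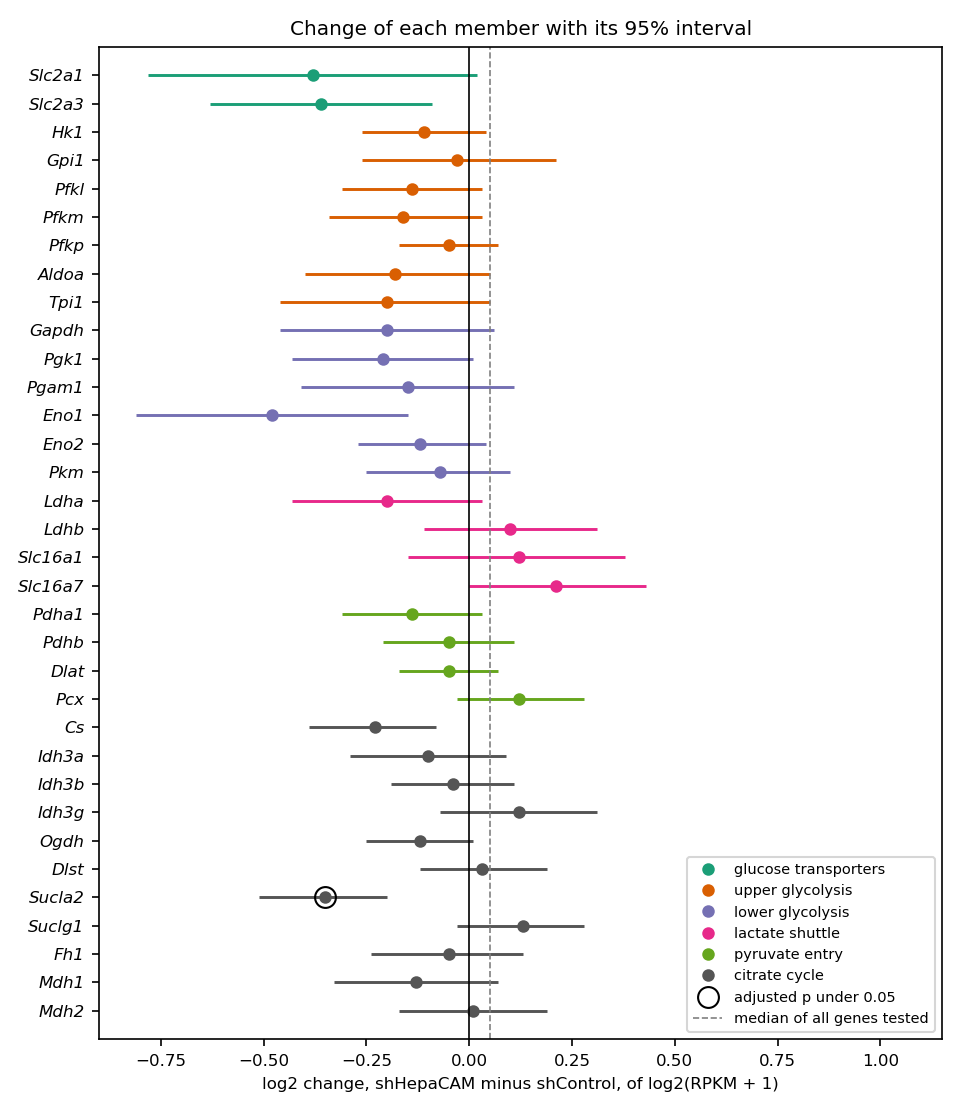
Log2 change (shHepaCAM minus shControl, of log2(RPKM + 1)) of each of the 34 genes in pathway order; points are limma estimates from 3 against 3 libraries, bars their 95% intervals, and the dashed line is the median of all genes tested (0.05). The circled gene, Sucla2, passed the test, and all 15 transporters and glycolytic enzymes have points below 0.

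One library held many of the low values. Of the 34 genes, 24 had their lowest value of the 6 libraries in shHepaCAM replicate 2, which held the lowest value of 18.0% of all tested genes. Against the control mean, the median of the 34 genes was -0.02, -0.22 and -0.07 on the log2 scale in shHepaCAM replicates 1, 2 and 3. The same medians over all tested genes were 0.03, 0.08 and 0.03. Without shHepaCAM replicate 2 the median change of the 34 genes was -0.05, against 0.03 over all genes, and 12 lay below and 6 above all controls (14.8% and 25.1% of all genes). The neuron marker sum was also lowest in that library, at 465 RPKM, and whether the 2 are linked was not tested.

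**Figure D2:**
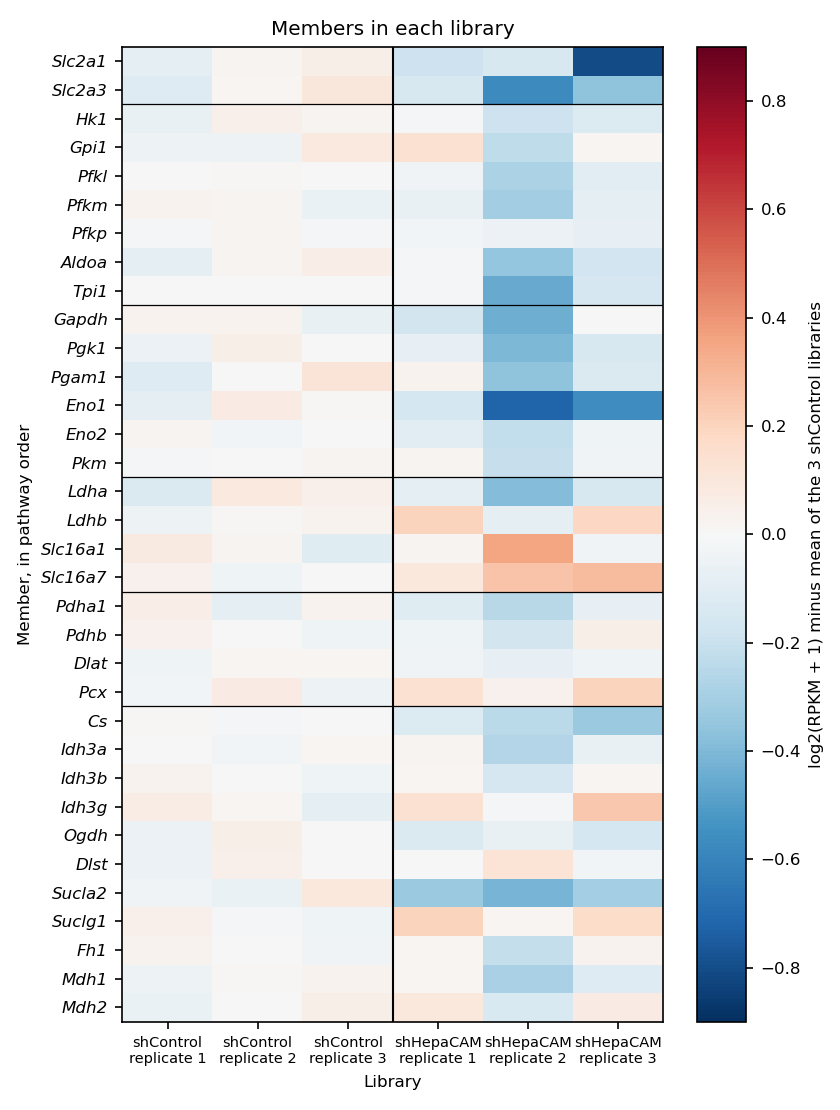
Each of the 34 genes (rows, pathway order, thin lines between roles) in each library (columns), as log2(RPKM + 1) minus the mean of the 3 shControl libraries; blue is lower and red higher. The shHepaCAM replicate 2 column is lowest in 24 genes, and Sucla2 is blue in all 3 knockdown columns.

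Both glucose transporters had lower values in the knockdown libraries without passing the test. Slc2a1, the transporter of brain endothelium and astrocytes, was at 24.4, 26.3 and 26.8 RPKM in the controls, listed from replicate 1 to 3 here and below, and at 22.6, 23.2 and 14.3 RPKM after knockdown. The groups did not overlap, and shHepaCAM replicate 3 stood well below the other 5 libraries. Its log2 change was -0.38 (95% interval -0.78 to 0.02, limma adjusted p = 0.224). Without shHepaCAM replicate 3 the change was -0.17. That library was also lowest of the 6 in choroid plexus markers, at 29.0 RPKM. The other library low in them, shControl replicate 1 at 66.9 RPKM, had Slc2a1 at 24.4 RPKM. The 6 endothelial markers summed to 30.4 to 44.5 RPKM in control and 30.6 to 48.5 RPKM in knockdown libraries. They were at 30.6 RPKM in shHepaCAM replicate 3 and at 30.4 RPKM in shControl replicate 3, where Slc2a1 was at 26.8 RPKM. With log2 Ttr, a choroid plexus marker, as a covariate the Slc2a1 change was -0.31 (limma adjusted p = 0.162). Without both libraries low in choroid plexus markers it was -0.21 (limma adjusted p = 0.238). Beyond these fits, the part of either cell type in the Slc2a1 value was not tested. Slc2a3, the high-affinity transporter of neurons, was at 17.1, 18.8 and 20.03 RPKM in control and 16.7, 12.2 and 14.3 RPKM in knockdown libraries, again without overlap but with a gap between the nearest 2 libraries of less than the spread in either group. Its log2 change was -0.36 (95% interval -0.63 to -0.09, limma adjusted p = 0.116). Within a library, Slc2a1 was 1.43, 1.4 and 1.34 times Slc2a3 in control and 1.35, 1.91 and 1.0 times in knockdown libraries, so the knockdown values lay on both sides of the control values.

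The upper part of glycolysis turns glucose into triose phosphates. Hk1, the hexokinase that traps glucose in the cell, averaged 60.1 ± 2.54 RPKM without and 55.7 ± 3.28 RPKM with knockdown (SD, n = 3 each; log2 change -0.11, limma adjusted p = 0.344). Gpi1, which isomerizes glucose 6-phosphate, had a log2 change of -0.03, with control and knockdown libraries interleaved. The 3 phosphofructokinase genes encode the main controlled step. Pfkl was at 49.3, 49.8 and 49.1 RPKM in control and 48.3, 40.4 and 46.0 RPKM in knockdown libraries. Pfkm was at 123.8, 123.7 and 116.6 RPKM and at 115.8, 97.3 and 113.9 RPKM. Pfkp was at 18.5, 19.0 and 18.4 RPKM and at 18.3, 18.0 and 17.6 RPKM. In all 3 genes every knockdown library lay below every control, with shHepaCAM replicate 1 nearest to the controls, and the log2 changes were -0.14, -0.16 and -0.05 with limma adjusted p-values of 0.296, 0.272 and 0.600. Pfkm made up 64.1% ± 0.68 of their summed RPKM in control and 63.4% ± 0.81 in knockdown libraries (SD, n = 3 each), and the groups overlapped for all 3 shares. RPKM divides by exon length, here 2957 bases for Pfkm, 6675 for Pfkl and 13401 for Pfkp. Their longest coding transcripts had 2879, 3730 and 4145 bases, so the size of the shares depends on the length used. Aldoa, the aldolase with the highest level of the 34 genes at 363 ± 19.5 RPKM in control libraries, and Tpi1, triose phosphate isomerase, had changes of -0.18 and -0.20 and did not pass (limma adjusted p = 0.313 and 0.302).

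The lower part of glycolysis makes ATP and pyruvate. Eno1, the enolase found in most cell types, had the lowest log2 change of the 34 genes. It was at 134.9, 151.0 and 144.7 RPKM in control and 128.7, 86.6 and 96.8 RPKM in knockdown libraries. The groups did not overlap, yet shHepaCAM replicate 1 sat near the controls and the other 2 knockdown libraries far below. The change was -0.48 (SE 0.14, 95% interval -0.81 to -0.15, limma adjusted p = 0.0919). Without shHepaCAM replicate 1 it was -0.64 with an adjusted p of 0.0149, and 3 of the 34 genes (Sucla2, Eno1 and Cs) were then called lower, where 2.28% of all genes were. Eno2, the neuronal enolase, was at 178.8, 172.8 and 174.7 RPKM and at 163.9, 150.5 and 171.0 RPKM (log2 change -0.12, limma adjusted p = 0.316). The ratio of Eno1 to Eno2 was 0.75, 0.87 and 0.83 in control and 0.79, 0.58 and 0.57 in knockdown libraries, and the groups overlapped through shHepaCAM replicate 1. Pgk1, the first ATP-forming step, and Pgam1, the mutase after it, had changes of -0.21 and -0.15. Pkm, the muscle-type pyruvate kinase, averaged 241 ± 3.80 RPKM without and 229.7 ± 19.0 RPKM with knockdown (SD, n = 3 each), a log2 change of -0.07. These 3 did not pass (limma adjusted p = 0.229, 0.441 and 0.590).

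Gapdh, often used as a reference transcript, could not be read from its own row. It stood at 34.7, 34.8 and 32.4 RPKM in control and 30.2, 24.8 and 34.1 RPKM in knockdown libraries (log2 change -0.20, limma adjusted p = 0.316), far below Pgk1 at 163 RPKM in control libraries. Its RPKM divides by 4133 exon bases, whereas its longest coding transcript had 1420. For Pgk1 these lengths were 2244 and 1825 bases. The part of the length in the low Gapdh level was not tested. In the annotation, 73 other genes shared at least 500 bases with a Gapdh transcript at 95% identity or more, and the 64 with a row summed to 274.8, 292.2 and 289.9 RPKM in control and 285.7, 212.1 and 247.5 RPKM in knockdown libraries. Reads of Gapdh and of these copies cannot be told apart where the sequence is the same. Of the 34 genes, 24 had no such copy. Among the other 10, Pfkp shared sequence with Pitrm1 (a mean of 7.49 RPKM), the copies of Eno1 summed to a mean of 11.6 RPKM, those of Pkm to 7.50 RPKM and those of Pgam1 to 2.77 RPKM.

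**Figure D3:**
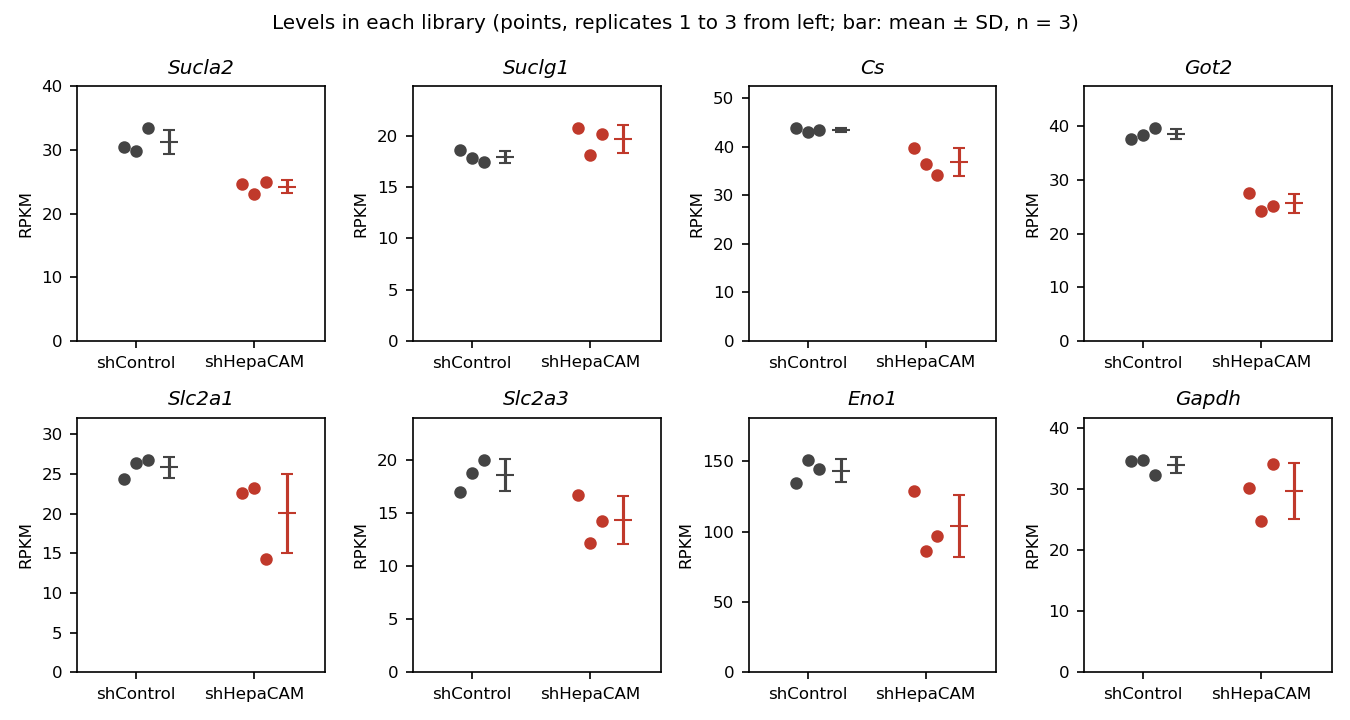
RPKM of 8 genes in each library (points, replicates 1 to 3 from left within a group) with the mean and SD of each group (n = 3) beside them; axes start at 0. The 3 knockdown points of Sucla2 and Got2 lie below all control points and close together, whereas those of Slc2a1 and Eno1 are scattered.

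Lactate dehydrogenase is a tetramer of A and B chains, and the B chain is known to favour the oxidation of lactate to pyruvate. Neither gene passed the test, but the ratio of the 2 did not overlap between the groups. Among single genes tested, 31.5% did not overlap, 20.9% with knockdown higher, and no such share was computed for ratios. Ldha was at 72.6, 84.7 and 82.2 RPKM in control and 75.3, 60.6 and 72.0 RPKM in knockdown libraries (log2 change -0.20, 95% interval -0.43 to 0.03, limma adjusted p = 0.253). Ldhb was at 192.0, 199.7 and 201.9 RPKM and at 227.4, 185.7 and 225.3 RPKM (log2 change 0.10, 95% interval -0.11 to 0.31, limma adjusted p = 0.531). Both genes were lowest in shHepaCAM replicate 2. Ldhb was 2.64, 2.36 and 2.46 times Ldha in control and 3.02, 3.06 and 3.13 times Ldha in knockdown libraries. The height of this ratio, as of the others, depends on the exon lengths used, 1570 bases for Ldhb and 3310 for Ldha. The means were 2.49 ± 0.15 and 3.07 ± 0.06 (SD, n = 3 each), and the gap between the groups exceeded the SD of either. An exact permutation test of 3 against 3 libraries cannot go below p = 0.1, and the ratio is given here as a description, with no test. The log2 difference of the ratio was 0.31, and 0.27 to 0.35 with any 1 library left out.

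**Figure D4:**
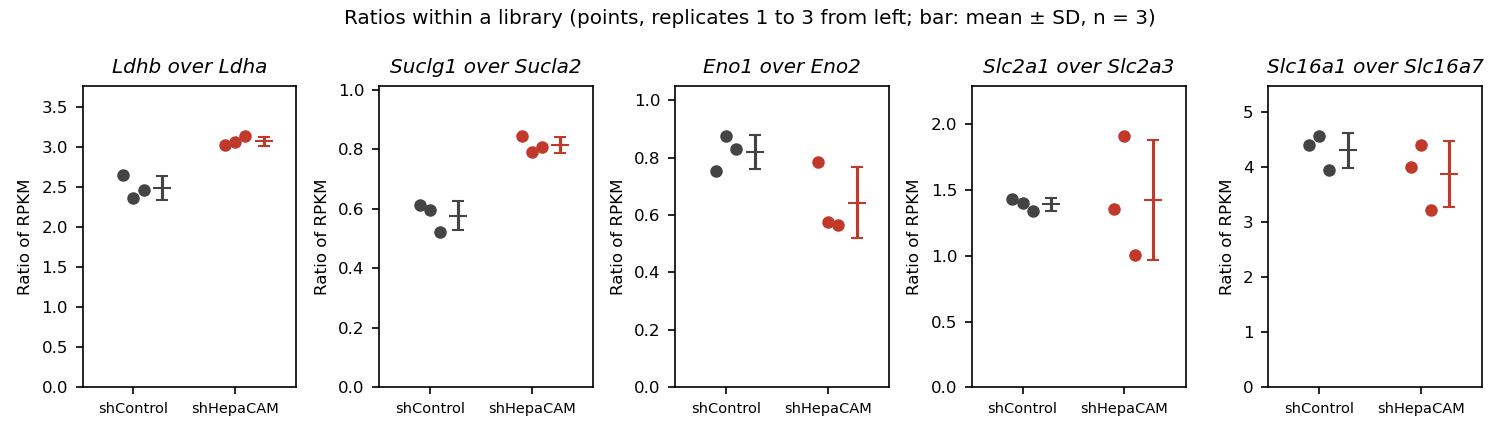
Ratio of RPKM of 5 pairs of genes in each library (points, replicates 1 to 3 from left) with the mean and SD of each group (n = 3); axes start at 0. Ldhb over Ldha and Suclg1 over Sucla2 have all 3 knockdown points above every control point, and the other 3 ratios overlap.

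The start regions of the 2 dehydrogenase genes are given because their ratio did not overlap between the groups, and that of Sucla2 because it passed the test. The windows run from 250 bases before to 50 after a start site in RefSeq, build GRCm38.p6, which is not the build of the deposited values. Capitals mark ACGTG, a form of the core bound by hypoxia-inducible factors, on either strand. The form GCGTG, present in the Ldha and Ldhb windows, was not counted or marked. ACGTG is also part of the E-box CACGTG, which then counts once on each strand. Ldha is at chr7:46845554-46845853 (plus strand, the start of 2 with the more matches), Ldhb at chr6:142507908-142508207 (minus strand) and Sucla2 at chr14:73552536-73552835 (plus strand).
Ldha: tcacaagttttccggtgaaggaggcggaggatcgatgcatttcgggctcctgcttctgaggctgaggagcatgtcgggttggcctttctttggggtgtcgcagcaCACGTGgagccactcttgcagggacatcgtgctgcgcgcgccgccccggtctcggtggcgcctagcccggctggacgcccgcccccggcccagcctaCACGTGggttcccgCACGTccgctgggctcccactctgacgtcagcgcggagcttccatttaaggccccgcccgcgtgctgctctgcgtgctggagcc
Ldhb: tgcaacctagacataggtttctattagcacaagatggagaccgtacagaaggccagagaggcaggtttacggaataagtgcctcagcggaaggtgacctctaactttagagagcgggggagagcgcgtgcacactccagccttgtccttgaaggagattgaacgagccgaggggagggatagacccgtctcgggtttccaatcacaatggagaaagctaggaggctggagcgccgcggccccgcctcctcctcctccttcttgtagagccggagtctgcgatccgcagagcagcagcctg
Sucla2: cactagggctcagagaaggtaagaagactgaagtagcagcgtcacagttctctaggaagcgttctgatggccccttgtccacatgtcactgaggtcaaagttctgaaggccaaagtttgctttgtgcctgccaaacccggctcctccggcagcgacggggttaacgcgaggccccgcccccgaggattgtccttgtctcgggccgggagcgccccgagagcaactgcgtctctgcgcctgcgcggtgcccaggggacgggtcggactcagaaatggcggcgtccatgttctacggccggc
The Ldha window held 5 matches in 3 places and the other windows 0. Of the 34 genes, 31 had a window (all but Slc2a3, Slc16a7 and Idh3a), and 15 of these (48.4%) held at least 1 match in some window, against 21.8% of 27025 genes. Counted by window, so that genes with several starts weigh more, 22 of 47 (46.8%) held a match, against 19.6% of all 32851. Other glycolytic genes with a match were Hk1, Pfkm, Aldoa, Gapdh, Pgk1, Pgam1 and Pkm. A match is a sequence description, not a measured site.

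The lactate transporters had low levels and changes above 0. Slc16a1, the monocarboxylate transporter of endothelium, astrocytes and oligodendrocytes, was at 11.6, 11.2 and 10.1 RPKM in control and 11.2, 14.3 and 10.7 RPKM in knockdown libraries. The groups overlapped, and its change of 0.12 rested on shHepaCAM replicate 2, without which it was 0.00. Slc16a7, the high-affinity transporter of neurons, was at 2.64, 2.45 and 2.55 RPKM and at 2.79, 3.25 and 3.33 RPKM. Its groups did not overlap, with a log2 change of 0.21 (95% interval 0.00 to 0.43, limma adjusted p = 0.207). It had the fewest reads of the 34 genes, 450 to 645 in a library. The ratio of Slc16a1 to Slc16a7 averaged 4.31 ± 0.32 and 3.88 ± 0.60 (SD, n = 3 each), and its groups overlapped.

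At the entry of pyruvate into mitochondria no gene passed. Pdha1 and Pdhb, the subunits of the first enzyme of pyruvate dehydrogenase, had log2 changes of -0.14 and -0.05, and Dlat, the second enzyme, -0.05 (95% interval -0.17 to 0.07). Pcx, pyruvate carboxylase, which refills the cycle and is known as an astrocyte enzyme in brain, was at 17.5, 18.9 and 17.3 RPKM in control and 19.7, 18.4 and 20.7 RPKM in knockdown libraries. The groups overlapped through shControl replicate 2, and the change was 0.12 (95% interval -0.03 to 0.28, limma adjusted p = 0.304). The 6 astrocyte markers summed to 188 to 199.6 RPKM in control and 199.7 to 220.4 RPKM in knockdown libraries. None of them passed the test. S100b averaged 54.5 RPKM in control and 67.6 RPKM in knockdown libraries, whereas Slc1a3 averaged 59.4 and 55.8 RPKM. The log2 change was above 0 in 5 of the 6 and below 0 in 1.

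In the citrate cycle 1 of 11 genes fell, 0 rose and the others did not pass. Sucla2 was at 30.4, 29.9 and 33.3 RPKM in control and 24.6, 23.0 and 25.0 RPKM in knockdown libraries. The 3 knockdown values lay close together, well below the lowest control. The means were 31.2 ± 1.87 and 24.2 ± 1.03 RPKM (SD, n = 3 each; SE of the log2 change 0.07, 95% interval -0.51 to -0.20). The direction held in all 16 alternative analyses, with changes of -0.41 to -0.31, but the call was lost in 9. The adjusted p was 0.0779, 0.0875 or 0.115 when control replicate 1, 2 or 3 was removed, and 0.0613 or 0.0602 when knockdown replicate 2 or 3 was.

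Its partner subunit had a value above 0. Suclg1, the alpha subunit that pairs with Sucla2, was at 18.6, 17.8 and 17.4 RPKM in control and 20.7, 18.2 and 20.2 RPKM in knockdown libraries, with overlapping groups and a change of 0.13 (limma adjusted p = 0.299). Suclg2, the GTP-forming beta subunit, averaged 3.62 ± 0.06 RPKM without and 4.57 ± 0.20 RPKM with knockdown (SD, n = 3 each; log2 change 0.27, limma adjusted p = 0.0748). The ratio of Suclg1 to Sucla2 was 0.61, 0.60 and 0.52 in control and 0.84, 0.79 and 0.81 in knockdown libraries, without overlap. Suclg1 and Suclg2 were set beside Sucla2 after its value was seen, as was Cs below.

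Cs, citrate synthase, the entry step of the cycle, came next by p-value. It was at 43.8, 43.0 and 43.5 RPKM in control and 39.8, 36.5 and 34.2 RPKM in knockdown libraries, so that all 3 lay below a tight control group. The change was -0.23 (SE 0.07, 95% interval -0.39 to -0.08, limma adjusted p = 0.0871), and without shHepaCAM replicate 1 it was -0.29 with an adjusted p of 0.0446. Ogdh, which encodes the first enzyme of the 2-oxoglutarate dehydrogenase complex, also had all knockdown libraries below control (log2 change -0.12, limma adjusted p = 0.244), whereas Dlst, the second enzyme of that complex, had a log2 change of 0.03. The isocitrate dehydrogenase subunits Idh3a, Idh3b and Idh3g had log2 changes of -0.10, -0.04 and 0.12. Fh1, fumarase, and the malate dehydrogenases Mdh1 (cytosol) and Mdh2 (mitochondria) had log2 changes of -0.05, -0.13 and 0.01. For these 6 genes the groups overlapped, and the limma adjusted p-values ran from 0.402 to 0.944.

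Around the 34 genes, 10 lists of neighbouring pathways were counted in the same fit. Of 100 listed genes tested, 3 fell and 0 rose, or 3.0% called. Of all tested genes, 6.07% were called, 1.84% lower and 4.23% higher. Got2, the mitochondrial aspartate aminotransferase, had the lowest adjusted p. It was at 37.7, 38.4 and 39.6 RPKM in control and 27.6, 24.2 and 25.2 RPKM in knockdown libraries, a fall of 0.57 (SE 0.06, limma adjusted p = 0.00826). Its call held in 14 of 16 alternatives. The limma adjusted p was 0.0502 without shControl replicate 3, and 0.0707 with shControl replicate 1 and shHepaCAM replicate 3 both removed. Slc25a1, the mitochondrial citrate carrier, went from 19.9 ± 0.35 to 15.6 ± 1.05 RPKM (SD, n = 3 each) and fell by 0.33 (limma adjusted p = 0.0331). Both belong to the list of malate-aspartate and citrate shuttles, where 2 of 10 fell and the median change was -0.16. In that list Slc25a22, a mitochondrial glutamate carrier chosen after its value was seen, was at -0.46 with a limma adjusted p of 0.055. Gpd1 of the same list went the other way, at 0.32 with a limma adjusted p of 0.0574. Idh1, the cytosolic NADP-linked isocitrate dehydrogenase, went from 14.8 ± 1.64 to 9.75 ± 1.52 RPKM (SD, n = 3 each), a fall of 0.56 (limma adjusted p = 0.0461). It was the 1 of 14 further citrate cycle and anaplerotic enzymes that passed (median -0.05). The call of Slc25a1 held without shHepaCAM replicate 1 and was lost when each of the other 5 was removed, with adjusted p-values of 0.0613 to 0.123. Idh1 lost it with any 1 library left out, with adjusted p-values of 0.0548 to 0.153.

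**Figure D5:**
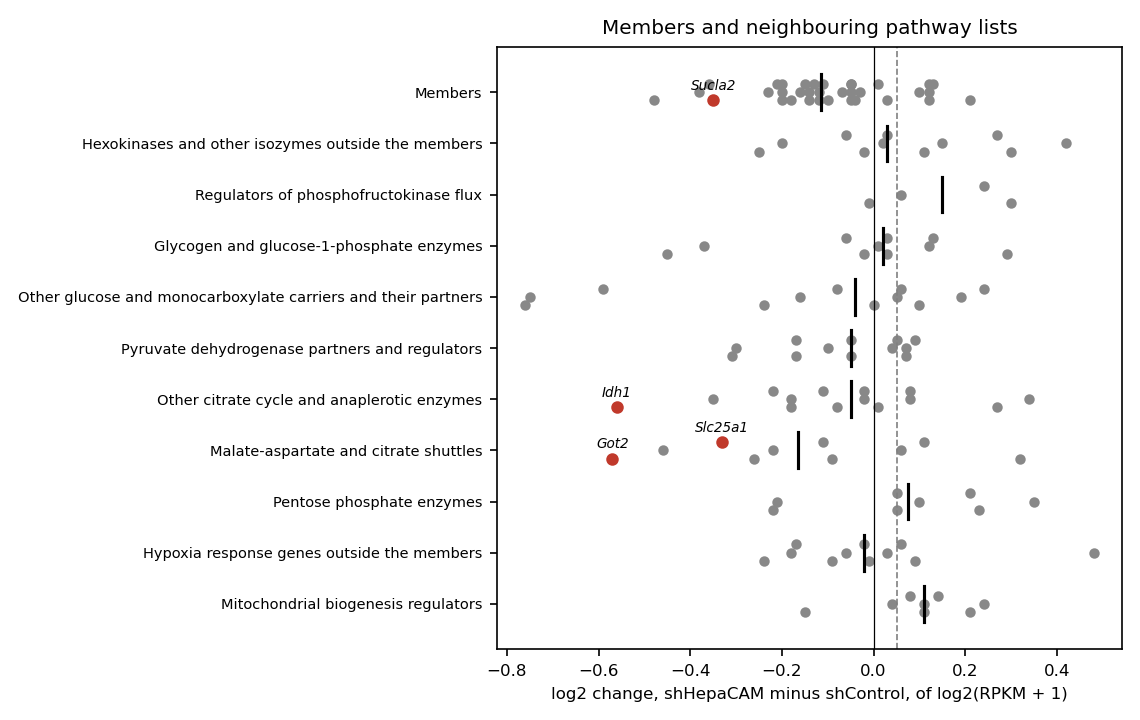
Log2 change (shHepaCAM minus shControl, of log2(RPKM + 1)) of each tested gene of the 34 members and of 10 neighbouring lists; black bars are list medians, red points passed the test and the dashed line is the median of all genes. The 4 red points, Sucla2, Idh1, Got2 and Slc25a1, all lie below 0.

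The other 8 lists had 0 genes called in limma. Among 11 further isozymes (median 0.03), Hk3, a hexokinase of myeloid cells, went from 0.72 ± 0.17 to 1.30 ± 0.12 RPKM beside the higher microglia markers (SD, n = 3 each; limma adjusted p = 0.114). Aldoc, the aldolase of astrocytes, was at 293.6, 293.0 and 265.6 RPKM in control and 264.4, 216.4 and 234.6 RPKM in knockdown libraries (log2 change -0.25, limma adjusted p = 0.140). Eno3, the muscle enolase, had a log2 change of 0.30. Among 4 regulators of phosphofructokinase flux (median 0.15), Tigar, a fructose bisphosphatase, had a log2 change of 0.30, and the bifunctional enzymes Pfkfb2 and Pfkfb3 of 0.24 and 0.06. Among 10 glycogen and glucose 1-phosphate enzymes (median 0.02), Gyg, the glycogenin that primes glycogen, had a log2 change of -0.45 (limma adjusted p = 0.0569), Pgm2l1 of -0.37 and the phosphoglucomutase Pgm2 of 0.29.

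Among 12 further carriers (median -0.04), the mitochondrial pyruvate carrier subunits Mpc1 and Mpc2 had log2 changes of 0.24 and -0.24. Among 12 partners and regulators of pyruvate dehydrogenase (median -0.05), the inhibitory kinases Pdk1, Pdk2 and Pdk3 had log2 changes of -0.17, -0.31 and -0.30 (limma adjusted p = 0.231, 0.211 and 0.0683). Among 8 pentose phosphate enzymes (median 0.08), the NADPH-forming dehydrogenases G6pdx and H6pd had log2 changes of 0.23 and 0.35 and transketolase, Tkt, of -0.22. Among 11 hypoxia response genes (median -0.02), the oxygen sensors Egln1 and Egln3 had log2 changes of 0.09 and 0.48 and Ankrd37 of -0.24. Among 8 regulators of mitochondrial biogenesis (median 0.11), Tfam, which packages mitochondrial DNA, Pprc1 and the receptor Esrra had log2 changes of 0.24, 0.21 and -0.15. At an unadjusted p under 0.05 these 8 lists held 15 of 76 genes (19.7%), against 24.2% of all tested genes, and limma-voom on whole reads called 1.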

How the data were processed

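Values were deposited as RPKM, 1 file per library, computed by the authors. TopHat2 2.0.12, Bowtie2 2.0.6 and build mm39 are named per the submitters' processing notes; the read counter, annotation, strand setting and treatment of multiply mapping reads were not given in the sources used here. Symbols and exon lengths came from GENCODE M21, on another build, so no coordinates were taken from it; 29805 of 29872 identifiers had a symbol. For 91.9% of genes with an exon length, RPKM steps gave whole reads within 0.01 read in each library, and so its depth (limma-voom on these reads called 1076 genes).

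Groups and replicate numbers came from the library titles. The fit used limma 3.58.1 in R 4.3.3 with an intensity trend on log2(RPKM + 1), for 13864 genes averaging 1 RPKM or more, Benjamini-Hochberg adjustment over all of them and a threshold of 0.05. It was also run on reads simulated with the same fixed dispersion for every gene, and no result of that run is used here. The members, the lists and the choice of tests were made with earlier results of these data known. Each of the 34 members was accounted for; from each list the genes past the threshold were named, or the 3 with the smallest p where none passed; 1 gene so chosen is not reported here. Ratios were taken within a library. Copies were found with BLAST. Alternatives were 2 other scalings, 2 other filters, a pseudocount of 0.1, no trend, a replicate block, Ttr as a covariate, limma-voom on whole reads, and libraries left out. Per-library values of Cs, Suclg1 and Suclg2, the ratio of Suclg1 to Sucla2, the motif, the printed windows, the copy search and the counts without shHepaCAM replicate 2 were chosen after values were seen. Figures were drawn with matplotlib 3.10.9.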

Additional observations from a re-analysis of the deposited data

How the results depend on the processing

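The median change of the 34 members stayed below 0 in all 16 alternatives, at -0.17 to -0.05. Of them, 1 was called lower in the reported fit, 0 with no filter, without trend, with the replicate block and with shControl replicate 1 and shHepaCAM replicate 3 both removed, and 0 to 3 with single libraries left out. Of 967 values of 61 members and list genes, 913 kept direction and side of the threshold, 31 lost the call, 7 gained it and 16 turned in sign. The deviations of same-numbered libraries from their group means had correlations of -0.21, 0.0155 and -0.145. With 3 libraries a group, these cannot decide whether the numbers mark a pairing. With the replicate block, 157 genes were called (112 higher, 45 lower), and 1 list gene was called lower.

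Over all genes 842 were called, 587 higher and 255 lower. With no filter there were 169 (121 and 48), with shControl replicate 1 and shHepaCAM replicate 3 both removed 104 (91 and 13), and with 1 library left out 98 to 867 (75 to 551 and 23 to 316). Without trend 153 were lower. The split was 390 to 341 with quantile normalization and 399 to 286 with scaling to the median gene. List genes called lower were 3 in the reported fit, 1 with no filter, 1 without trend, 0 with shControl replicate 1 and shHepaCAM replicate 3 both removed, 5 with a filter at 5 RPKM, 5 with limma-voom and 0 to 4 with 1 library left out; called higher were 2 with a filter at 5 RPKM, 1 with limma-voom and 0 to 1 with 1 library left out. Hepacam missed the threshold with shControl replicate 1 and shHepaCAM replicate 3 both removed (-0.54, adjusted p = 0.0695) and, with 1 library left out, changed by -0.68 to -0.58.

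Signs turned only for uncalled values near 0. With shHepaCAM replicate 2 left out, Gpi1 was 0.08, Slc16a1 0.00, Pdhb 0.01, Idh3b 0.02, Dlst -0.01, Fh1 0.03 and Pfkfb3 -0.11. Dlst was -0.01 and Pfkfb3 -0.02 with quantile normalization; scaled to the median gene, Dlst was -0.02 and Mdh2 -0.05. Gpi1 was 0.02 without shControl replicate 3. Mdh2 was -0.05 with shControl replicate 1 and shHepaCAM replicate 3 both removed, -0.02 without shControl replicate 1, -0.03 without shHepaCAM replicate 1 and -0.02 without shHepaCAM replicate 3. The log2 ratio of Slc2a1 to Slc2a3 was 0.00 without shControl replicate 1, 0.21 without shHepaCAM replicate 3 and 0.23 with shControl replicate 1 and shHepaCAM replicate 3 both removed. With 1 library left out the ranges were -0.11 to 0.08 for Gpi1, 0.00 to 0.19 for Slc16a1, -0.10 to 0.01 for Pdhb, -0.07 to 0.02 for Idh3b, -0.01 to 0.06 for Dlst, -0.10 to 0.03 for Fh1, -0.03 to 0.09 for Mdh2, -0.11 to 0.19 for Pfkfb3 and -0.25 to 0.21 for that ratio. The cause was not tested. With 3 libraries a group, a member whose interval spans 0 may still differ by up to the limits of that interval.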

Other observations

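Some carriers of the neighbouring lists followed the choroid plexus content of the libraries; they were chosen after their values were seen. Slc16a8, a lactate carrier of epithelia, was at 0.65, 6.16 and 4.76 RPKM in the controls, from replicate 1 to 3, and at 1.93, 2.30 and 0.44 RPKM after knockdown. Slc2a12, a glucose transporter, was at 0.84, 6.89 and 4.85 RPKM and at 2.70, 2.21 and 0.49 RPKM. Both were lowest in shControl replicate 1 and shHepaCAM replicate 3, the libraries lowest in choroid plexus markers, and neither passed the test (limma adjusted p = 0.455 and 0.459).

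Isoforms of isocitrate dehydrogenase and aspartate aminotransferase also differed in balance. Idh2, the mitochondrial NADP-linked form, was 1.17, 1.14 and 1.03 times Idh1 in control and 1.99, 2.03 and 2.5 times Idh1 in knockdown libraries. Got1, the cytosolic form, was 3.32, 3.25 and 3.32 times Got2 in control and 4.34, 3.62 and 4.45 times Got2 in knockdown libraries. In both ratios all 3 knockdown libraries lay above all 3 controls. These ratios were chosen after Idh1 and Got2 had passed the test, so their direction is not independent of it.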
